A study of Mus musculus with 6 samples.

Results

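C/D box small nucleolar RNAs (snoRNAs) are described here in eCLIP libraries of mouse Gtsf1. They were taken as the annotated features of the snoRNA class whose names start with Snord, which gave 98 of the 1753368 features and 98 of the 838 features of that class. A further 675 snoRNA features carry only Gm names and are not assigned to a family here, and the 10 genes of the U3 snoRNA are annotated as Rnu3 and fall outside the rule. Of the 98 members, 94 had a mean of at least 1 RPM (reads scaled to the sequenced total of the library, per 1e6) over the 4 crosslinked libraries and entered the test. The other 4, which are Snord116l14, Snord116l9, Snord116l12 and Snord123, have values only. At that limit, Snord7 lay just inside with a mean of 1.14 RPM and Snord116l14 just outside with 0.93 RPM.

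Gtsf1, also called Asterix, is a zinc-finger protein that acts with PIWI proteins and their piRNAs. In eCLIP, ultraviolet light joins RNA to protein covalently before the protein is purified and its RNA is sequenced. All 6 libraries came from P19 cells, a mouse embryonal carcinoma line, transiently transfected with Gtsf1 that carried a C-terminal TEV-Strep tag and was driven by the EF-1alpha promoter, so the protein was overexpressed. Cells were taken 48 hours after transfection, and RNA was recovered on MagStrep beads as the pull-down or kept from the lysate as the input. There were 2 crosslinked inputs and 2 crosslinked pull-downs, from cells irradiated at 254 nm, and 1 input with 1 pull-down without crosslinking. No pull-down from cells without the tagged protein was analysed here. The labels do not state whether the numbered libraries came from separate cultures, so p-values measure only the spread between these libraries, which may be technical.

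C/D box snoRNAs carry the conserved boxes C and D and assemble with fibrillarin, Nop56, Nop58 and Snu13. Most guide the 2′-O-methylation of ribosomal RNA, some guide that of the U6 spliceosomal RNA, and a few, such as U8 (Snord118), U13, U14 and U22, act in the cleavage and folding of the ribosomal RNA precursor. In mammals most are cut out of introns of host genes, many of which encode ribosomal proteins or noncoding host RNAs. The other large family, the H/ACA box snoRNAs, guides pseudouridylation with dyskerin as its enzyme.

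Most members lie inside other genes. Of the 98, 91 matched a gene in the RefSeq table of GRCm38.p6, the assembly that mm10 denotes, with lengths of 28 to 221 bases and a median of 68 bases. The other 7, Snord107, Snord50a, Snord50b, Snord60, Snord78, Snord80 and Snord80-2, are named only. For 88 of the matched members another gene spans the locus, and the table gives no strand, exon or intron for that overlap. Only Snord118 at chr11:69073426-69073562, Snord13 at chr8:31149861-31149958 and Snord89 had no other gene around them. Reads that matched several features were divided between them in the deposited counts, so near-identical copies cannot be told apart. Through this division 13 tested copies of Snord116 had the same counts as each other in the 6 libraries. Counting these once leaves 82 distinct tested members.

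The libraries held between 13168593 and 18418166 reads, of which 6.99% to 14.4% had no annotation, and 1 read was worth 0.0543 to 0.0759 RPM. Of the 7 embryonal carcinoma markers, 6 had reads in both crosslinked inputs, and their summed level was 110 and 88.1 RPM, with Pou5f1 at 46.3 and 40.1 RPM. The 7 markers of differentiated cells summed to 5.61 and 5.29 RPM there, with Sox17 and Afp at 0. Features of the transfected gene Gtsf1 summed to 91.8 and 88.7 RPM in the crosslinked inputs against 206 and 451 RPM in the crosslinked pull-downs. The non-crosslinked input had 71.0 RPM and its pull-down 56.1 RPM. The crosslinked pull-downs differed from each other for the members. In pull-down 2, 89 of 94 tested members exceeded their value in pull-down 1 (median ratio 1.52), against 36.6% of all tested features. H/ACA box snoRNAs showed the same order for 41 of 41 features.

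As a family, C/D box snoRNAs held more of the reads in every pull-down than in every input. The 98 members summed to 2021 and 1929 RPM in the crosslinked inputs against 2606 and 3926 RPM in the crosslinked pull-downs. Without crosslinking the input had 1982 RPM and the pull-down 2609 RPM. Both crosslinked pull-downs lay above both inputs, and pull-down 1 lay close to the non-crosslinked pull-down. The crosslinked inputs gave them 0.197% ± 0.00648 (SD, n = 2) of the reads and the crosslinked pull-downs 0.327% ± 0.0933 (SD, n = 2), which is 1.65 times as much. In the non-crosslinked input the share was 0.198% (95% Wilson interval 0.196% to 0.201%), and its pull-down held 0.261% (0.258% to 0.264%), which is 1.32 times as much. Such intervals take in counting error alone, and they would be too narrow if PCR copies of 1 molecule were counted as separate reads. An exact two-sided permutation test of 2 against 2 gave p = 0.33, the smallest that the 6 splits allow, so no share could pass 0.05.

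Part of this came from Snord118. It made up 8.07% and 7.48% of all C/D reads in the crosslinked inputs against 25.3% and 20.1% in the crosslinked pull-downs. In the non-crosslinked libraries it made up 5.51% of the input and 13.6% of the pull-down. Without it the ratio of pull-down to input was 1.40 with crosslinking and 1.20 without. Taken alone, crosslinked pull-down 1 then held 1.07 times the mean of the inputs and pull-down 2 held 1.72 times.

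The H/ACA box snoRNAs, the 41 features named Snora, were lower in every pull-down than in every input. They summed to 4424 and 4957 RPM in the crosslinked inputs against 926 and 1680 RPM in the crosslinked pull-downs. The non-crosslinked input held 3494 RPM and its pull-down 744 RPM. Within a library, a ratio of both families does not depend on the library total. The ratio of C/D to H/ACA reads was 0.457 and 0.389 in the crosslinked inputs against 2.82 and 2.34 in their pull-downs. The same ratio was 0.567 in the input and 3.51 in the pull-down without crosslinking. Inputs and pull-downs did not overlap, and the change was 6.09-fold with crosslinking and 6.18-fold without. The exact permutation p of the crosslinked libraries was again 0.33, the smallest possible. C/D box snoRNAs made up 12.5% ± 1.70 (SD, n = 2) of the snoRNA class in the crosslinked inputs and 25.2% ± 2.37 (SD, n = 2) in the pull-downs.

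**Figure D1:**
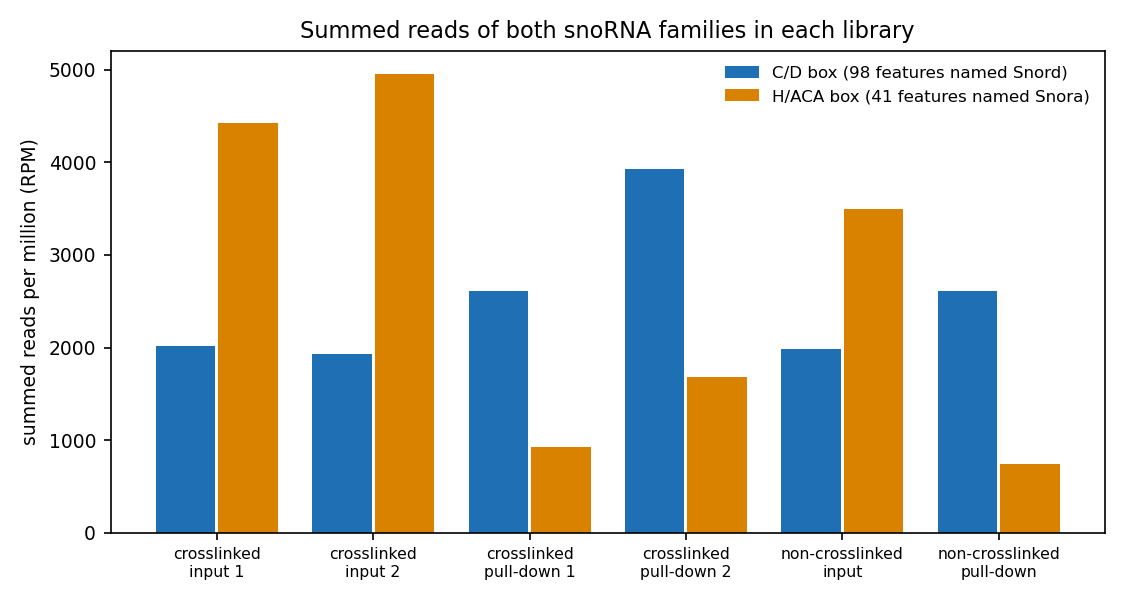
Summed RPM (vertical axis, starting at 0) of 98 C/D box and 41 H/ACA box snoRNA features in each of the 6 libraries, with 1 bar for each library and family. C/D bars are taller in the 3 pull-downs (2606, 3926 and 2609 RPM) than in the 3 inputs, and H/ACA bars are shorter there (926, 1680 and 744 RPM).

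Feature by feature, 26 of the 94 tested members were higher in the crosslinked pull-downs than in the inputs and 0 were lower, by edgeR's quasi-likelihood test at a Benjamini-Hochberg adjusted p under 0.05 over 39872 features. Over all tested features 6.41% were called higher and 3.47% lower. The 26 include Snord90 and Snord98, which had a mean of less than 1 RPM in the crosslinked inputs and entered the test only through the pull-downs, and 24 of the other 92 members were called. At an unadjusted p under 0.05, 49 members were higher and 1, Snord50b, was lower. Over all tested features the unadjusted shares were 8.42% higher and 14.4% lower. DESeq2 called 35 members higher and 0 lower, against 6.32% and 0.599% of all features, and limma called 22 higher and 0 lower, against 6.31% and 5.81%. The median log2 ratio of the members was 0.79 against -0.21 over all tested features, and 70 of 94 lay above 0, against 25% of all tested features. Among the 41 H/ACA features, 31 were called lower and 0 higher by the same edgeR fit, with a median log2 ratio of -2.07; 35 were lower and 0 higher at an unadjusted p under 0.05.

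Scaling factors by TMM moved the median of all features from -0.21 to 0.00 and that of the members from 0.79 to 1.00, with 29 members higher and 0 lower, against 6.93% and 1.59% of all features. The counts depended on which crosslinked pull-down was used. Without pull-down 1, edgeR called 55 members higher and 0 lower, the median log2 ratio was 1.04, and 73 members lay above 0, against 25.1% of all features. Over all features that fit called 6.75% higher and 2.87% lower. Its 55 included Snord83b, Snord12, Snord60, Snord47, Snord14d, Snord1b, Snord4a, Snord34, Snord32a and Snord8, which were not called with both pull-downs. Without pull-down 2 the median was 0.33 and 58 members lay above 0, against 29.9% of all tested features. In that fit edgeR called 20 higher and 10 lower, namely Snord100, Snord110, Snord37, Snord49b, Snord50b, Snord53, Snord65, Snord87, Snord95 and Snord96a, against 6.47% higher and 2.11% lower of all features. In these fits the lone pull-down is assumed to vary like the inputs. Some members changed direction between the 2 fits. Snord53 and Snord95 had log2 ratios of 0.99 and 0.92 without pull-down 1, and -1.23 and -1.01 without pull-down 2. With no filter on low counts, 942601 features entered the fit and no feature, member or other, was called.

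Both crosslinked pull-downs lay above both inputs for 48 of the 94 members, against 10.8% of all tested features. They lay below both inputs for 6 members, against 57.7% of all tested features. These 6 were Snord100, Snord50b, Snord96a, Snord65, Snord49b and Snord89. The remaining 40 members overlapped between the groups. The Spearman rho between length and log2 ratio was -0.15 over the 75 distinct members of known length, which share libraries and depth.

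**Figure D2:**
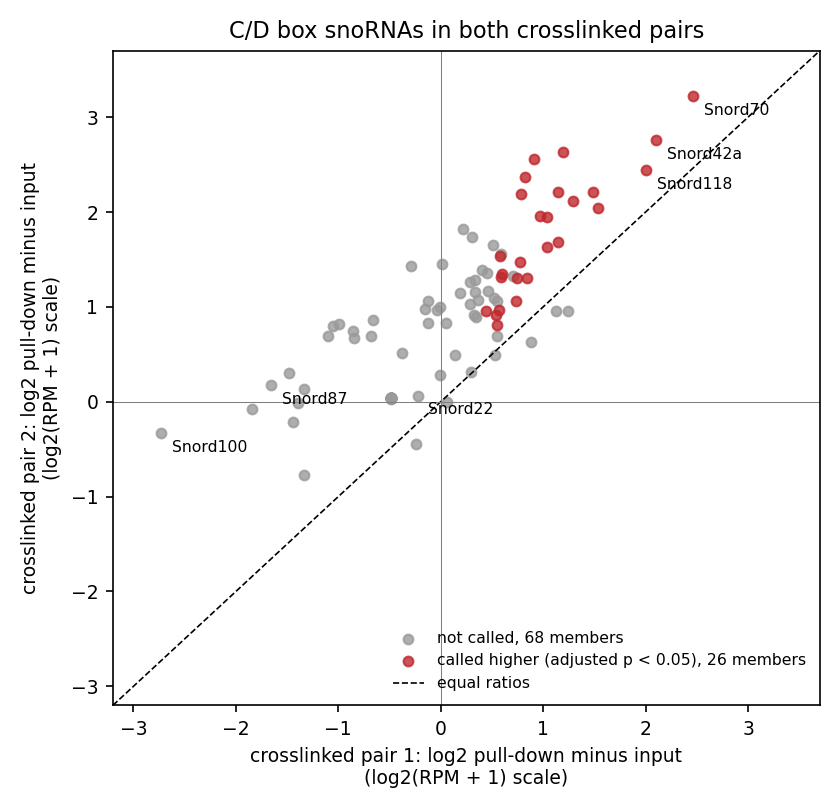
Difference of pull-down minus input on the log2(RPM + 1) scale for the 94 tested members, in crosslinked libraries numbered 1 (horizontal axis) and 2 (vertical axis), with called members in red and the dashed line at equal ratios. The numbers need not mark a shared culture. Most members lie above the line, as pull-down 2 exceeded pull-down 1 for 89 of 94, and the 26 called members lie above 0 in both.

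Snord118, the U8 snoRNA of ribosomal RNA processing, had the highest mean RPM of all members over the 4 crosslinked libraries. In crosslinked input 2 and in the non-crosslinked input Snord83b lay above it. In the latter Snord13 (150 RPM) and Snord22 (131 RPM) did as well. Snord118 acts in maturation of the 5.8S and 28S rRNAs. It had 163 and 144 RPM in the crosslinked inputs against 658 and 791 RPM in the crosslinked pull-downs. The non-crosslinked input had 109 RPM and its pull-down 356 RPM. All 3 pull-downs lay above all 3 inputs. The mean was 154 ± 13.2 RPM (SD, n = 2) in the inputs and 725 ± 93.7 RPM (SD, n = 2) in the pull-downs. The edgeR log2 ratio was 2.33 with an SE of 0.21 and an adjusted p of 0.000917. Per kilobase of gene, Snord118 had 1122 RPM in the crosslinked inputs, below the 2073 RPM of Snord83b, and 5290 RPM in the crosslinked pull-downs, above the 3246 RPM of Snord83b, the next highest among members of known length.

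Snord13, or U13, another snoRNA of precursor processing that lies outside any other gene, had 148 and 133 RPM in the crosslinked inputs. The crosslinked pull-downs had 217 and 215 RPM, and the non-crosslinked libraries 150 RPM in the input and 232 RPM in the pull-down. Its groups did not overlap, but its log2 ratio of 0.71 had an adjusted p of 0.0593 with edgeR and 0.0475 with DESeq2. Snord22, or U22, which lies inside the host RNA gene Snhg1, had 125 RPM in both crosslinked inputs and 106.9 and 130.6 RPM in the crosslinked pull-downs. The groups overlapped, with a log2 ratio of 0.02 and an adjusted p of 0.967, and the ratio turned below 0 when unannotated reads were kept in the library sizes.

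The copies of Snord14, or U14, which both takes part in 18S rRNA processing and guides methylation, differed in level. Snord14d, inside the heat shock gene Hspa8, had 22.7 and 40.2 RPM in the crosslinked inputs and 55.2 and 78.8 RPM in the pull-downs, with an adjusted p of 0.0862. Snord14c and Snord14e lie in the same gene, and Snord14a lies in the ribosomal protein gene Rps13. Snord14a had 7.93 and 8.70 RPM in the crosslinked inputs and 12.29 and 17.96 RPM in the pull-downs, and was called higher with a log2 ratio of 0.96 and an adjusted p of 0.0497. It was no longer called without crosslinked input 1 (adjusted p of 0.157), input 2 (0.0572) or pull-down 2 (0.103) in edgeR's fits. Of the 7 members on the processing list, Snord118 and Snord14a were called higher, 5 were not called and 0 were lower, with a median log2 ratio of 0.96; 5 were higher at an unadjusted p under 0.05 and 0 lower. Over all tested features these shares were 6.41% and 3.47% called, and 8.42% and 14.4% at the unadjusted p.

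Other abundant members showed smaller shifts. Snord83b, inside the ribosomal protein gene Rpl3, had 160 and 159 RPM in the crosslinked inputs against 203 and 297 RPM in the crosslinked pull-downs. Without crosslinking the input had 235 RPM and the pull-down 283 RPM. Its pull-downs lay above the inputs in both settings, with an adjusted p of 0.127. Snord12, inside the noncoding host RNA gene Zfas1, had 97.01 and 90.35 RPM in the crosslinked inputs and 119 and 186 RPM in the pull-downs, with an adjusted p of 0.128. Snord17, the longest member, inside Snx5, had 66.0 and 79.8 RPM in the crosslinked inputs and 95.8 and 112.7 RPM in the pull-downs, with an adjusted p of 0.14. Neither was called by edgeR with all libraries, though the groups did not overlap for either. Without pull-down 1, edgeR called Snord83b with a log2 ratio of 1.00 and an adjusted p of 0.0343, and Snord12 with 1.09 and 0.0199. Without pull-down 2 the ratios were 0.42 for both, and neither was called.

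Of the other 4 of the 10 members with the most reads, Snord87, Snord60 and Snord47 overlapped between the groups, and Snord100 was lower in both pull-downs than in both inputs. Snord87, inside the spans of Mcmdc2 and the noncoding host gene Snhg6, had 87.2 and 95.2 RPM in the crosslinked inputs and 27.1 and 107.4 RPM in the pull-downs. Its log2 ratio was -0.34 with both pull-downs, 0.34 without pull-down 1 and -1.68 without pull-down 2, the last with an adjusted p of 0.00359. Snord100, inside the ribosomal protein gene Rps12, had 83.8 and 69.5 RPM in the crosslinked inputs against 11.8 and 55.1 RPM in the crosslinked pull-downs. The non-crosslinked input had 79.1 RPM and its pull-down 21.0 RPM. It was the member with the lowest log2 ratio, -1.10 with an SE of 0.63 and an adjusted p of 0.371, and without pull-down 2 the ratio was -2.62 with an adjusted p of 0.000504. Snord60 had 37.1 and 48.5 RPM in the inputs and 46.7 and 92.0 RPM in the pull-downs. Snord47 had 50.5 and 44.5 RPM in the inputs and 46.1 and 79.9 RPM in the pull-downs, and neither passed the test with both pull-downs. Without pull-down 1, edgeR called Snord60 with a log2 ratio of 1.21 and an adjusted p of 0.0207, and Snord47 with 0.86 and 0.0475. Without pull-down 2 the ratios were 0.20 and 0.036, and neither was called.

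Among the called members, Snord70, Snord90 and Snord42a had the largest ratios, ahead of Snord118. Snord70, at chr1:59691958-59692010 inside the gene of the core protein Nop58, had 4.18 and 4.04 RPM in the crosslinked inputs against 27.61 and 45.97 RPM in the crosslinked pull-downs. The non-crosslinked input had 4.52 RPM and its pull-down 26.5 RPM. Each pull-down exceeded each input, and the log2 ratio was 3.26 with an SE of 0.30 and an adjusted p of 0.000974. Snord90, inside Rc3h2, had 11 and 8 reads in the crosslinked inputs and 60 and 78 in the pull-downs, which is 0.63 and 0.43 RPM against 3.72 and 4.93 RPM. Its log2 ratio was 3.10 with an SE of 0.27 and an adjusted p of 0.000827, but its inputs lay below the limit of 1 RPM, so it was bound to differ once it entered the test.

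Both guides inside the ribosomal protein gene Rpl23a that were on its list rose. Snord42a had 2.78 and 1.79 RPM in the crosslinked inputs and 15.3 and 17.9 RPM in the pull-downs, with a log2 ratio of 2.96 and an adjusted p of 0.000557. Snord42b had 9.19 and 7.06 RPM in the inputs and 27.6 and 36.4 RPM in the pull-downs, with an adjusted p of 0.00213. Another member that lies in the same gene by position, Snord4a, had 12.8 and 8.25 RPM in the inputs and 10.24 and 24.01 RPM in the pull-downs and was not called.

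Related copies moved alike in some families, and where copies share sequence the split of their reads is uncertain. Snord88c and Snord88a, both inside 2410002F23Rik, had log2 ratios of 2.31 and 2.18 with adjusted p values of 0.0283 and 0.0199. Snord88a had 5.61 and 2.20 RPM in the crosslinked inputs and 14.1 and 18.9 RPM in the pull-downs. Snord88c had 2.46 and 0.95 RPM in the inputs and 5.49 and 10.5 RPM in the pull-downs. Snord1a and Snord1c, inside the host RNA gene Snhg16, both had log2 ratios of 2.09, with adjusted p values of 0.00373 and 0.00882. Snord1a had 3.72 and 2.88 RPM in the inputs and 10.5 and 15.8 RPM in the pull-downs, and Snord1c had 1.96 and 1.46 RPM against 5.09 and 8.51 RPM. Snord1b of the same host had 10.4 and 10.0 RPM in the inputs and 9.43 and 21.97 RPM in the pull-downs, which overlapped, and was not called. All 8 called members with the largest ratios kept log2 ratios above 0 in edgeR's fits when any 1 of the 4 crosslinked libraries was left out. This says nothing for Snord90, since it entered the test only through the pull-downs. The ratio of Snord88a was 3.00 without input 1 and 1.66 without input 2, and that of Snord88c was 3.10 and 1.80.

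**Figure D3:**
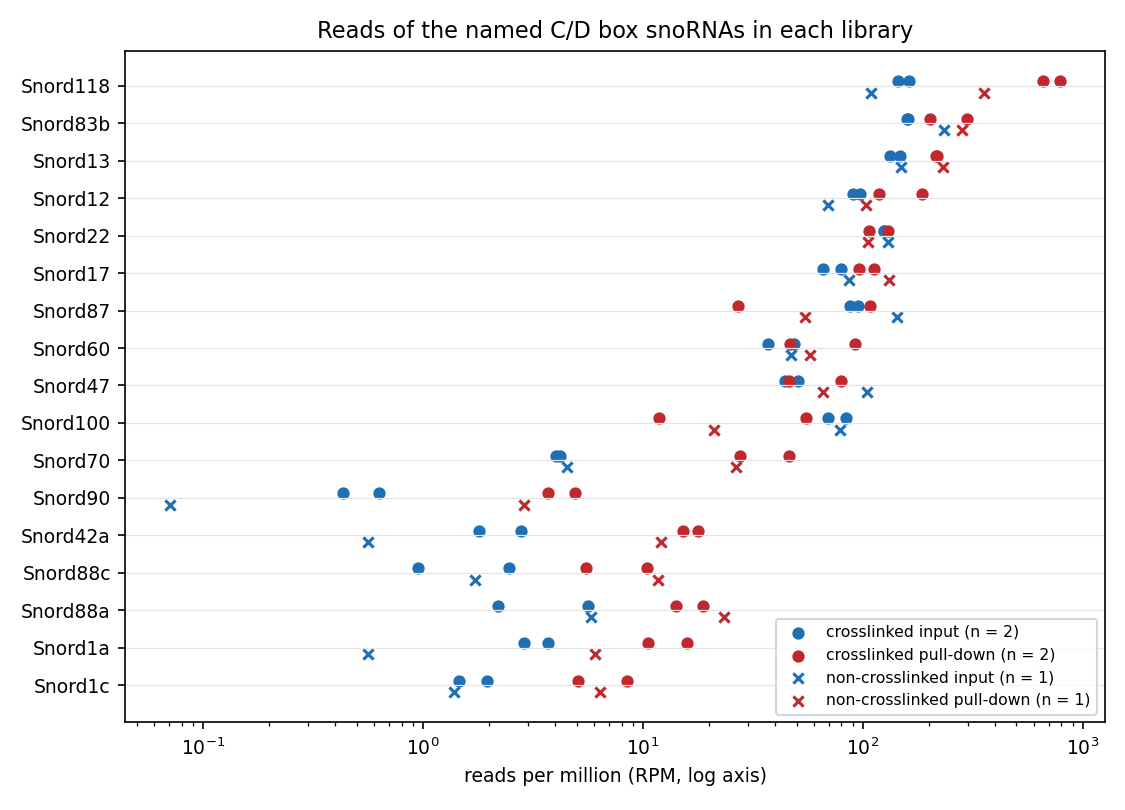
RPM on a log axis for the 10 members with the most reads and the 8 called members with the largest ratios (17 in all, since Snord118 is in both), with 1 point per library. Blue marks inputs and red pull-downs, circles crosslinked and crosses non-crosslinked libraries. From Snord70 downwards every red point lies right of every blue point of the same setting, while Snord22, Snord87, Snord60 and Snord47 overlap and Snord100 lies the other way.

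The other lists were short, and their counts stand beside 6.41% of all features called higher and 3.47% called lower. The guides of U6 snRNA methylation, Snord67, Snord8 and Snord7, gave 0 of 3 called in either direction by edgeR's main fit. At an unadjusted p under 0.05, 1, Snord8, was higher and 0 were lower, against 8.42% and 14.4% of all features. With TMM factors, with rRNA left out and with identical features counted once, edgeR called Snord8 higher, against 6.37% to 7.86% of all features. Snord67 had 10.2 and 7.49 RPM in the crosslinked inputs and 7.01 and 7.65 RPM in the pull-downs. The list for the host gene Gas5 held 4 members, Snord47, Snord80, Snord80-2 and Snord78. With all 4 crosslinked libraries edgeR called only Snord78 higher, with 1.37 and 1.14 RPM in the inputs and 2.98 and 4.30 RPM in the pull-downs. The log2 ratio of Snord80 was 1.59 without pull-down 1 and 0.22 without pull-down 2, and that of Snord80-2 was 1.58 and 0.17. Of 4 members in Rpl13a, Snord33 and Snord35a were called higher, and Snord34 and Snord32a were not. Snord33 had 23.9 and 21.2 RPM in the crosslinked inputs and 36.5 and 54.3 RPM in the pull-downs, and was no longer called without crosslinked input 1 (adjusted p of 0.0694), input 2 (0.0894) or pull-down 2 (0.0577) in edgeR's fits.

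By edgeR with all 4 crosslinked libraries, the 2 members in Rack1, the 2 in Nop56 and the 1 each in Ncl, Rpl4, Snhg1 and Rps12 were not called. Their ratios depended on the pull-down used. That of Snord95 in Rack1 was 0.92 without pull-down 1 and -1.01 without pull-down 2, and that of Snord16a in Rpl4 was 1.41 and 0.54. No member belongs to the lists of the tRNA methylation guide, the imprinted Dlk1-Dio3 region or the Rpl7a introns. Among the 49 other guides tested, 18 were called higher and 0 lower, against 6.41% and 3.47% of all features, with a median log2 ratio of 0.99; 32 were higher and 1 was lower at an unadjusted p under 0.05, against the 8.42% and 14.4% of all features. Without pull-down 1 the adjusted counts were 36 higher and 0 lower, against 6.75% and 2.87% of all features, and without pull-down 2 they were 15 and 6, against 6.47% and 2.11%. Among the 21 members inside a ribosomal protein gene, a group formed after the values were seen, 6 were called higher and 0 lower, with a median of 0.96; 14 were higher and 0 lower at an unadjusted p under 0.05, and the shares of all features are those given for the other guides, adjusted and unadjusted. Without pull-down 1 the adjusted counts were 19 and 0, and without pull-down 2 they were 4 and 1, beside the shares of all features in those fits given above. The 3 members inside 2410006H16Rik, Snord49a, Snord49b and Snord65, were also grouped afterwards. By edgeR with all 4 crosslinked libraries they had log2 ratios below 0, with a median of -0.49 and none called. In that fit 25% of all features lay above 0. In the order named, the ratios were -0.049, -0.18 and 0.025 without pull-down 1 and -1.04, -1.68 and -1.31 without pull-down 2.

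The imprinted Snrpn-Ube3a region, whose snoRNAs lie in the host transcript Snhg14 and are best known from brain, held 19 members. The 17 copies of Snord116 summed to 29.7 and 22.1 RPM in the crosslinked inputs against 17.0 and 23.8 RPM in the crosslinked pull-downs. Without crosslinking the input had 31.7 RPM and the pull-down 27.4 RPM. Crosslinked inputs and pull-downs overlapped. Of these copies 14 were tested, with a log2 ratio of -0.28 each and an adjusted p of 0.582, and they stand for 1 shared set of reads rather than 14 observations. Snord64 of the same region had 7.33 and 5.10 RPM in the crosslinked inputs and 10.3 and 10.8 RPM in the pull-downs, and was called higher with a log2 ratio of 0.86 and an adjusted p of 0.047. It was no longer called without input 2 (adjusted p of 0.202), pull-down 1 (0.0602) or pull-down 2 (0.105) in edgeR's fits. Snord107 had 6.64 and 3.26 RPM in the inputs and 10.2 and 7.90 RPM in the pull-downs, with an adjusted p of 0.134 by edgeR. Its log2 ratio was 1.54 without input 1 and 0.55 without input 2.

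The non-crosslinked pair shows how the same RNAs were recovered on the beads without a covalent bond, with 1 library on each side and therefore no replicate check. With 1 RPM added before the log2, which shrinks the ratios of features with few reads, the median ratio of pull-down to input was 0.34 over the 94 members and -0.41 over all tested features. A log2 ratio of 1 or more was reached by 30 members against 5.26% of all features. A ratio of -1 or less was reached by 3 members against 6.05% of all features. Above 0 lay 60 members, against 15.7% of all features. All 26 members called higher with crosslinking also lay above 0 without it, and 21 of them reached 1. Of all 2556 features called higher with crosslinking, 95.1% lay above 0 without it and 68.7% reached 1. The median of the 26 members was 1.84 without crosslinking and 1.44 with it on the same scale, and that of the 2556 features was 1.57 and 1.67. Of the 68 members not called, 34 lay above 0 and 34 below, against 10.5% above 0 of all features not called. The 34 below include the 14 tested Snord116 copies, which share 1 set of reads. Without these copies 60 of 80 tested members lay above 0, and the median of the 80 was 0.60. Across the 82 distinct members the crosslinked and non-crosslinked log2 ratios had a Spearman rho and a Pearson r of 0.82. These points share libraries and depth, and the value is a description.

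The difference between the crosslinked and non-crosslinked ratios was tested in a fit of all 6 libraries, in which each lone library is assumed to vary like the crosslinked replicates. With edgeR 0 members passed in either direction, against 0.0% of all tested features. At an unadjusted p under 0.05, 1 member had a higher ratio with crosslinking and 7 had a lower one. Over all tested features these shares were 11.6% higher and 2.03% lower. The median difference was -0.12 on the log2 scale for the members and 0.56 for all tested features. Without the Snord116 copies, which share 1 set of reads, the median of the other 80 tested members was 0.018. The member with the higher ratio was Snord16a, inside Rpl4, with 6.07 and 7.11 RPM in the crosslinked inputs against 9.12 and 16.3 RPM in the crosslinked pull-downs. The non-crosslinked input had 5.16 RPM and its pull-down 3.15 RPM. The adjusted p of Snord16a was 0.344.

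The 7 with a lower ratio were Snord19, Snord33, Snord37, Snord42a, Snord64, Snord69 and Snord85. DESeq2 called 3 of them, Snord19, Snord37 and Snord64, against 0.369% of all features called lower. With crosslinked input 1 left out, edgeR called Snord64, against 0.321% of all features. Snord64 had 5 reads (0.353 RPM) in the non-crosslinked input and 84 reads (6.38 RPM) in its pull-down. Snord19 had 3 reads (0.212 RPM) in that input and 8.81 RPM in the pull-down. Snord37, inside the elongation factor gene Eef2, had 10 reads in the non-crosslinked input (0.707 RPM) and 8.66 RPM in its pull-down, but 23.2 and 18.6 RPM in the crosslinked inputs against 10.3 and 30.8 RPM in the crosslinked pull-downs. For these 3 members the non-crosslinked input was the lowest of all 6 libraries, and it is 1 library. Snord98 had 0 reads there, which allows up to 0.212 RPM.

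**Figure D4:**
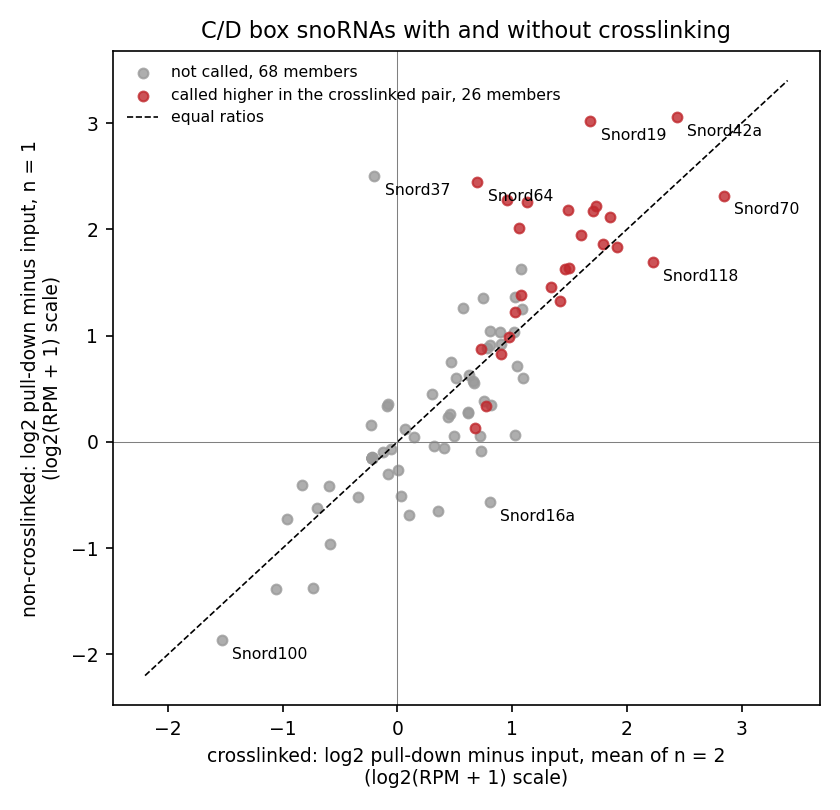
Difference of pull-down minus input on the log2(RPM + 1) scale with crosslinking (horizontal axis, mean of n = 2) and without (vertical axis, n = 1) for the 94 tested members, called members in red, dashed line at equal ratios. The 26 called members lie above 0 on both axes, as 95.1% of all features called higher do without crosslinking, and Snord37 and Snord19 lie far above the line and Snord16a below it.

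Introns of the host genes were set beside the snoRNAs inside them. Since the strand is not known, a host here may also be a gene that overlaps the snoRNA on the other strand. For 46 members in 32 host genes whose intron features summed to at least 1 RPM, the median log2 ratio of the crosslinked pull-downs to inputs was 0.72 for the snoRNA and -0.16 over the hosts' introns. The snoRNA had the higher ratio for 35 of the 46, and for 36 of the 46 without crosslinking, where the medians were 0.37 and -0.13. The 35 include Snord90 and Snord98, which entered the test only through the pull-downs, so their crosslinked direction was fixed by the filter. The median difference between a snoRNA and its host's introns was 0.74. For 20 of the 32 hosts the intron ratio was below 0. The median of all tested features on this scale was -0.20, close to that of the hosts' introns. By edgeR 25% of all tested features had a log2 ratio above 0.

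Snord2, inside the translation initiation factor gene Eif4a2, had 22.2 and 25.5 RPM in the crosslinked inputs and 36.7 and 65.5 RPM in the pull-downs. The introns of Eif4a2 had 125 and 126 RPM in the inputs and 40.1 and 45.5 RPM in the pull-downs, so the gene's snoRNA and its introns lay on opposite sides of the inputs. The introns of Nop58, whose span holds Snord70 and Snord11, had 32.4 and 31.7 RPM in the inputs and 25.5 and 23.3 RPM in the pull-downs. The introns of Rpl23a had 2.63 and 2.44 RPM in the inputs and 4.84 and 4.61 RPM in the pull-downs, a log2 ratio of 0.69, which was below those of Snord42a (2.43) and Snord42b (1.85) on the same scale. In Eef2 the order was turned, with 0.97 for the introns and -0.20 for Snord37. These hosts were picked after their values were seen.

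**Figure D5:**
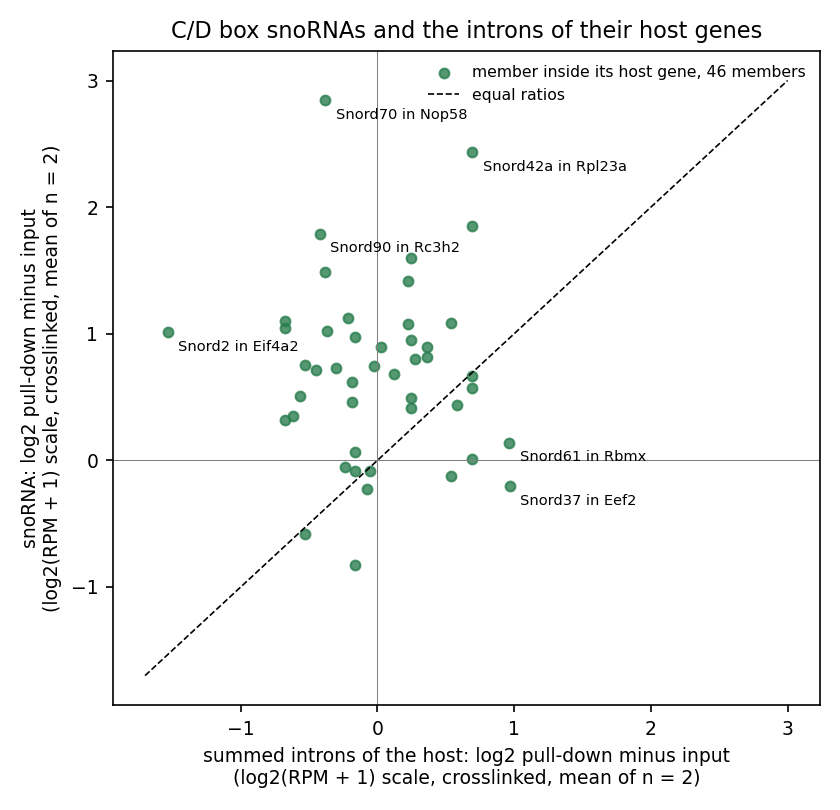
Difference of pull-down minus input on the log2(RPM + 1) scale in the crosslinked libraries (means of n = 2) for 46 members (vertical axis) against the summed introns of their host gene (horizontal axis), dashed line at equal ratios. Of the points, 35 lie above the line, with Snord70 in Nop58 and Snord2 in Eif4a2 far above and Snord37 in Eef2 below. Snord90 and Snord98, which entered the test only through the pull-downs, are among the 35.

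Few features of the protein partners reached the limit for the test. Of 13 tested features of the genes of the C/D core proteins, 2 were called higher and 5 lower, and all of these belong to Nop56, against 6.41% and 3.47% of all tested features. The 5 lower ones are introns of Nop56 with identical counts, 2.31 and 2.24 RPM in the crosslinked inputs and 0.583 and 0.758 RPM in the pull-downs, and so stand for 1 set of reads. An exon feature of Nop56, exon5_2 in the annotation, had 17.8 and 18.7 RPM in the crosslinked inputs against 50.5 and 68.0 RPM in the crosslinked pull-downs. Its non-crosslinked input had 16.3 RPM and the pull-down 50.7 RPM, and its log2 ratio was 1.79 with an adjusted p of 0.0032. Fbl, which encodes the methyltransferase fibrillarin, had 1 tested feature, its pre-mRNA, with 2.58 and 1.85 RPM in the inputs and 1.74 and 1.26 RPM in the pull-downs, not called. The assembly factors and the H/ACA core proteins had 3 tested features each, and the lowest adjusted p values by edgeR were 0.0557 for an intron of Nufip1 and 0.0989 for an exon of Dkc1, so too few were tested to set against the shares of all features.

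The authors' deposited table gives an enrichment ratio per feature by a formula that no source used here states. Of the members, 85 are listed in the authors' deposited table, with a median of 1.69. Of these, 59 (69.4%) lie above 1, against 74.6% of all listed features. The 85 include Snord116 copies, many with the same ratio of 0.724, which stand for 1 set of reads. Counting the copies at 0.724 once would raise the members' share. The 41 H/ACA features listed there have a median of 0.323, with 2 above 1, and all 216085 listed features a median of 1.37. In the authors' deposited table the highest members are Snord70 at 13.8, Snord118 at 6.91 and Snord88a at 4.77.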

How the data were processed

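Per the files, the authors deposited for each library expected counts for the annotated features, and RPM, these counts scaled to all reads of the library, with unannotated ones included. A further table deposited by the authors gives 1 enrichment ratio per feature. The submitters' processing notes name mm10, bcl2fastq 2.19, STAR 2.5.2b and bedtools 2.29.0; the source of the annotation, and whether PCR duplicates were removed, is not given in the sources used here.

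Counts were rounded to whole numbers and tested with edgeR 4.0.16 (quasi-likelihood) in R 4.3.3, on 39872 features whose mean over the 4 crosslinked libraries reached 1 RPM, with annotated reads as library sizes and Benjamini-Hochberg adjustment over all of them at 0.05. The SE of a log2 ratio is its size divided by the root of the F statistic. Unannotated reads (6.99% to 14.4%) stayed out of library sizes and tests. Descriptive log2 ratios used a pseudocount of 1 RPM. A host gene is a RefSeq gene (GRCm38.p6) whose span contains the member. The script was tested on simulated counts. Depth ranged from 13168593 to 18418166 reads.

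The members and lists were chosen with earlier results of these data known. Members were named by rule: the 10 with the most RPM in the crosslinked libraries, up to 8 called in each direction without overlap by size of ratio, up to 5 in each direction for the difference of ratios, and examples of each list. Other members, among them Snord19, Snord37 and those printed beside their hosts, were named after their values were seen. DESeq2 1.42.0, limma 3.58.1, other filters, scalings, pseudocounts, a replicate block and fits without 1 library were the alternatives. No sequences were used, and 1 of the lists is not reported here.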

Additional observations from a re-analysis of the deposited data

How the results depend on the processing

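Of the 26 members called higher, against 6.41% of all features, the count was 17 of 66 tested with a filter at a mean of 5 RPM, where fewer features are tested and 9.29% of them were called higher. It was 0 with no filter (0 lower as well), where 942601 features are tested and none is called. Identical features counted once, when features of any class with the same counts in the 6 libraries enter as 1, gave 28 of 81 members. The share of all features was 7.86%. In that fit a feature outside the family can stand for a member. DESeq2 called 35, TMM factors 29, the fit of all 6 libraries 26, library sizes with unannotated reads 25, limma 22 and a fit without rRNA 28, against 6.31% to 6.93% of all features. Each of these called 0 members lower, against 0.599% (DESeq2) to 5.81% (limma) of all features. With 1 crosslinked library left out, the count higher ranged from 20 to 55 and the count lower from 0 to 10. Over all features these fits called 6.46% to 6.93% higher and 2.11% to 5.44% lower. In each of them 1 group holds only 1 library. For the difference between crosslinked and non-crosslinked ratios, the count lower was 3 with DESeq2, against 0, and ranged from 0 to 1 with 1 library left out.

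With the replicate number as a block, edgeR called 23 members higher and 0 lower, against 6.35% and 4.16% of all features. Of the 23, 18 were among the 26. Snord88a and Snord88c were no longer called (adjusted p 0.0553 and 0.07). The labels do not say that the numbers pair the libraries, and the deviations of same-numbered libraries correlated at 0.11 over features, with only 2 pairs.

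Of the named members, Snord22 (0.02) turned to -0.075 with unannotated reads in the library sizes, to -0.081 with limma, and ranged from -0.15 to 0.17 over libraries left out, below 0 without crosslinked pull-down 2. Snord87 (-0.34) ranged from -1.68 to 0.34, above 0 without pull-down 1. The cause was not tested. The share ratio of C/D reads ranged from 1.32 to 1.99 and the C/D to H/ACA change from 5.53 to 6.66 over libraries left out. The precision is limited by the number of libraries, 2 per crosslinked group and 1 per non-crosslinked group.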
